A study of Homo sapiens with 3 samples.

Results

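Augmin, also called the HAUS complex, was examined as its 8 subunit genes, HAUS1 to HAUS8, in a human epithelial cell line. The members were taken by name from the deposited table of read counts, which holds 58735 genes, and all 8 had a row. RNA was measured by sequencing of poly(A) RNA in 3 libraries of RPE-1 cells, a telomerase-immortalised line from retinal pigment epithelium. Per the labels, these cells carry GFP-tagged Cetn2, a centriole marker, and a PLK4 gene that is inducible by doxycycline through rtTA. They were given a scramble siRNA and PLK4 was not induced, so the 3 libraries are replicates of 1 control group and no condition can be compared. The study asks about the RNA-binding protein Unkempt when centrioles overduplicate. Whether each library had its own culture is not stated, so a p-value here describes no more than how these samples scatter, and that scatter may be technical.

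Augmin lets a new microtubule grow from the side of an existing one. It sits on the wall of a spindle microtubule and, through the adaptor NEDD1, brings the gamma-tubulin ring complex, the template on which microtubules nucleate. This branching nucleation multiplies spindle microtubules in mitosis, supports the fibres that pull on chromosomes and helps to keep centrosomes whole. The complex holds 1 copy of each of 8 subunits in a pair of subassemblies. The subassembly TII (HAUS2, HAUS6, HAUS7 and HAUS8) holds the microtubule-binding site, and TIII (HAUS1, HAUS3, HAUS4 and HAUS5) is a long coiled-coil stalk.

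The libraries held 46625774 to 60040029 counts. Library 1 stood apart from the other two. The SD of log2 ratios over the 12615 detected genes was 0.314 between libraries 1 and 2 and 0.294 between 1 and 3, against 0.152 between 2 and 3. A gene counted as detected when its CPM, the count scaled to library size with TMM factors, was at least 1 in each library. Of 8 pigment epithelium markers, MITF, BEST1, PMEL and OTX2 were detected, while TYR and TTR had 0 counts and RPE65 had 8, 6 and 0 counts. KRT8 and KRT18 of 4 epithelial markers and VIM, FN1 and CDH2 of 3 mesenchymal markers were detected. The summed level of the epithelial list was 729.9, 945 and 966 CPM in libraries 1, 2 and 3. It was lowest in library 1, as were 6 of the 8 subunits and 44.8% of the 16293 genes in the spread test described below. Of this list, KRT8 averaged 634 CPM and KRT18 246 CPM over the 3 libraries. CDH1 of this list had 0, 5 and 5 counts and EPCAM had 0, 2 and 3. The mesenchymal list summed to 18352, 18042 and 17772 CPM, highest in library 1. The part of either list in the results below was not tested. Of markers of other cell types, PTPRC of 4 blood markers (summed level 2.27 to 2.99 CPM) and SYT1 and SNAP25 of 4 neuron and liver markers (94.9 to 100.03 CPM) were detected, and HBB, CD3E and APOA1 had 0 counts.

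Of the 8 subunit genes, 7 were detected and HAUS7 was not, beside 11508 detected of 19951 protein-coding genes. HAUS7 (ENSG00000213397, hg38 chromosome X, 153447666 to 153495516, minus strand) had 0, 17 and 24 counts in libraries 1, 2 and 3. In library 1 the count of 0 was given a floor of 3 counts, or 0.0618 CPM, while the exact binomial 95% interval reached 0.0760 CPM. In library 2 the level was 0.280 CPM (exact binomial 95% interval 0.163 to 0.448) and in library 3 it was 0.513 CPM (0.329 to 0.763). Such intervals and limits cover counting error only, since sequenced reads are not independent molecules. In every library HAUS7 was thus far below the other 7 subunits.

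Nearly all of the coding sequence of HAUS7 lies in exons of a neighbouring gene. TREX2, which encodes a DNA exonuclease, overlaps it on the same strand (153444720 to 153470587). Of 1308 coding bases of HAUS7, 1281 (97.9%) fall in exons of TREX2, and 35.6% of all its exon bases do. Of 837 coding bases of TREX2, 95 fall in exons of HAUS7. No base codes in both genes. Along the strand, HAUS7 coding ends 47.635 kb from its first base and TREX2 coding begins at 47.674 kb. In the longest HAUS7 coding sequence (1104 bases), 100% of the stretches of 30 bases are found letter for letter in TREX2 transcripts. The coding start of HAUS7 (chrX:153470558-153470587, minus strand, start codon in capitals), present in 3 of 11 HAUS7 and 4 of 7 TREX2 transcripts, is printed as a stretch in which a read names neither gene alone:
HAUS7 and TREX2: ATGggcggggcgcggctcggagcgcgaaac

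TREX2 itself had 26, 22 and 23 counts, or 0.463 ± 0.0902 CPM (SD, n = 3), and its spread did not pass the chi-square test described below (adjusted p = 0.418). In libraries 2 and 3 the counting intervals of HAUS7 and TREX2 overlapped, and in library 1 TREX2 had 26 counts and HAUS7 none. The treatment of reads that lie on both is not stated in any source here. Over the whole table, 902 protein-coding genes have at least 90% of their coding bases on exons of another gene of the same strand, and 141 of them (15.6%) were detected. Of the 17507 with no coding base shared in this way, 10409 (59.5%) were detected. In between, the detected share was 66.7% of 808 genes with up to 25% shared and 59.4% of 271 with 25 to 50%. It was 55.7% of 463 genes with 50 to 90% shared. The part of this sharing in the low HAUS7 count was not tested.

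HAUS4 (ENSG00000092036, chromosome 14, 22946228 to 22957161), a TIII subunit, shares 34.1% of its exon bases and 47.1% of its coding bases with other genes of its strand. Nearly all of this is shared with AL132780.3, an annotated protein-coding gene with 94.01% of its own exon bases inside HAUS4, which had 0 counts in all 3 libraries. The microRNA gene MIR4707 in HAUS4 also had 0 counts. The first shared stretch of 30 coding bases, joined over an intron (chr14:22947985-22950314, minus strand, found in 13 of 21 HAUS4 transcripts), is given to show a site that cannot tell them apart:
HAUS4 and AL132780.3: gatgctgacagtgaaaccgtgaaggcagca

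HAUS3 (ENSG00000214367, chromosome 4, 2227464 to 2242164) shares 9.71% of its exon bases and 10.7% of its coding bases with POLN, a DNA polymerase gene of the same strand. POLN had 4.80, 3.13 and 2.44 CPM. The other 5 subunit genes share no exon base with a gene of their own strand. On the opposite strand AC018362.2 covers 16.4% of HAUS2, AC020908.1 covers 4.28% of HAUS8, AL132780.1 covers 1.85% of HAUS4 and ATP5F1A covers 3 bases of HAUS1. AC018362.2 and AC020908.1 had 0 counts, and AL132780.1 had 13, 13 and 16. The strand setting of the counting is likewise not stated.

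**Figure D1:**
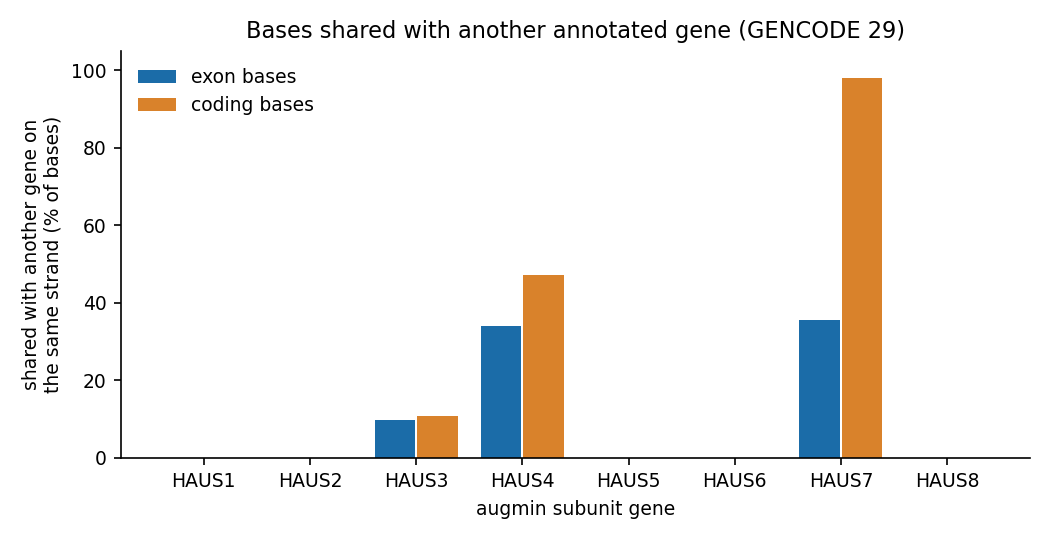
Percent of the exon bases and of the coding bases of each subunit gene that also lie in an exon of another gene on the same strand (GENCODE release 29). HAUS7 reaches 97.9% and HAUS4 47.1% of coding bases, and 5 subunits have 0%.

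In the TII subassembly, HAUS6 (ENSG00000147874, chromosome 9, 19053143 to 19103119) gave the most reads of any subunit. It encodes the largest subunit, whose C-terminal part binds NEDD1. HAUS6 stood at 55.96, 58.9 and 61.3 CPM in libraries 1, 2 and 3, or 7.40 ± 0.336 RPKM (SD, n = 3). RPKM is CPM per kb of annotated exon and allows levels of different genes to be compared. HAUS2 (ENSG00000137814, chromosome 15, 42548810 to 42569994), a coiled-coil subunit, stood at 39.7, 41.6 and 47.05 CPM, or 9.89 ± 0.887 RPKM. HAUS8 (ENSG00000131351, chromosome 19, 17049729 to 17075625), whose N-terminal part binds microtubules, stood at 19.8, 17.5 and 18.4 CPM, or 3.36 ± 0.205 RPKM. Library 3 gave the highest value of HAUS6 and HAUS2, while HAUS8 was highest in library 1. Within libraries the HAUS2 level per length was 1.33 ± 0.0640 times that of HAUS6, and HAUS6 was 2.21 ± 0.207 times HAUS8 (SD, n = 3). HAUS7, which pairs with HAUS6 in the complex, averaged 0.0666 ± 0.0647 RPKM.

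In the TIII subassembly, HAUS1 (ENSG00000152240, chromosome 18, 46104332 to 46128333) was the highest per length. It stood at 17.9, 20.7 and 23.9 CPM, or 9.61 ± 1.38 RPKM. HAUS5 (ENSG00000249115, chromosome 19, 35612744 to 35625349) stood at 23.0, 25.5 and 25.4 CPM, or 4.85 ± 0.279 RPKM. HAUS4 stood at 7.91, 10.7 and 11.3 CPM, or 3.93 ± 0.719 RPKM. In HAUS1, HAUS4 and HAUS5 library 1 gave the lowest value. HAUS3 was the lowest detected subunit per length, at 21.6, 20.1 and 23.3 CPM, or 3.06 ± 0.231 RPKM, with library 2 lowest. Within libraries HAUS1 was 1.98 ± 0.20 times HAUS5, 2.46 ± 0.191 times HAUS4 and 3.14 ± 0.373 times HAUS3 per unit of length.

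**Figure D2:**
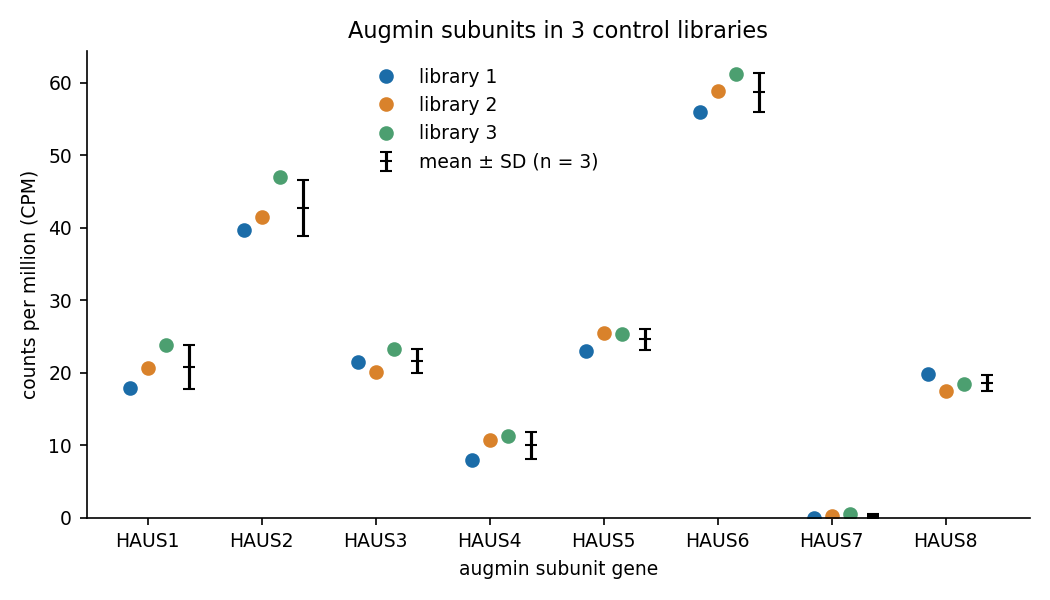
CPM of each subunit in libraries 1, 2 and 3 (points) with the mean ± SD of the 3 libraries (black). HAUS6 lies between 55.96 and 61.3 CPM and HAUS4 between 7.91 and 11.3, while HAUS7 lies near 0.

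By mean RPKM the order from high to low was HAUS2, HAUS1, HAUS6, HAUS5, HAUS4, HAUS8, HAUS3 and HAUS7. The 7 detected subunits spanned 3.23-fold, from 3.06 to 9.89 RPKM, around a median of 4.85 RPKM. The median over all 8 was 4.39 RPKM, and over the 11508 detected protein-coding genes it was 6.09 RPKM. HAUS2 lay above 64.2% of those genes and HAUS3 above 30.7%. Of the 7 neighbouring pairs in this order, the library ranges of 3 overlapped. These were HAUS2 and HAUS1 (HAUS2 higher in 2 of 3 libraries), HAUS4 and HAUS8 (HAUS4 higher in 2 of 3) and HAUS8 and HAUS3 (HAUS8 higher in 3 of 3). HAUS1 exceeded HAUS6 by 0.36 ± 0.14 on the log2 scale, HAUS6 exceeded HAUS5 by 0.60 ± 0.040 and HAUS5 exceeded HAUS4 by 0.31 ± 0.19, each in 3 of 3 libraries without overlap. The order was taken from these same libraries, so such counts of libraries give it no separate support. With 3 libraries the two-sided exact sign-flip test cannot go below 0.25, so no pair could pass (exact p of 0.25 to 0.75, adjusted p of 0.35 to 0.75 over 7 pairs). Against HAUS3, HAUS7 was 40.3-fold and 25.5-fold lower in libraries 2 and 3. In library 1, with HAUS7 set at the floor of 3 counts, it was 196-fold lower. That floor lies below the exact binomial bound of 0.0760 CPM, so 196 is not a lower limit.

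Parts of this order rested on the length used. With the whole count divided by the exon bases that belong to 1 gene alone, HAUS4 was at 5.97 instead of 3.93 RPKM and stood above HAUS5. HAUS3 at 3.39 then stood next to HAUS8 at 3.36. Reads on shared bases were not taken out of these counts. If such reads were counted, the values of HAUS3, HAUS4 and HAUS7 by this length are too high. If they were left out of the deposited counts, the values of these genes over the exon union are too low. Over the longest annotated transcript HAUS1 led with 18.5 RPKM ahead of HAUS2 with 10.8, and HAUS8 stood at 5.85. Under each of the 3 lengths HAUS2, HAUS1 and HAUS6 were the 3 highest subunits, HAUS7 was the lowest, and in CPM HAUS6 and HAUS2 led.

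**Figure D3:**
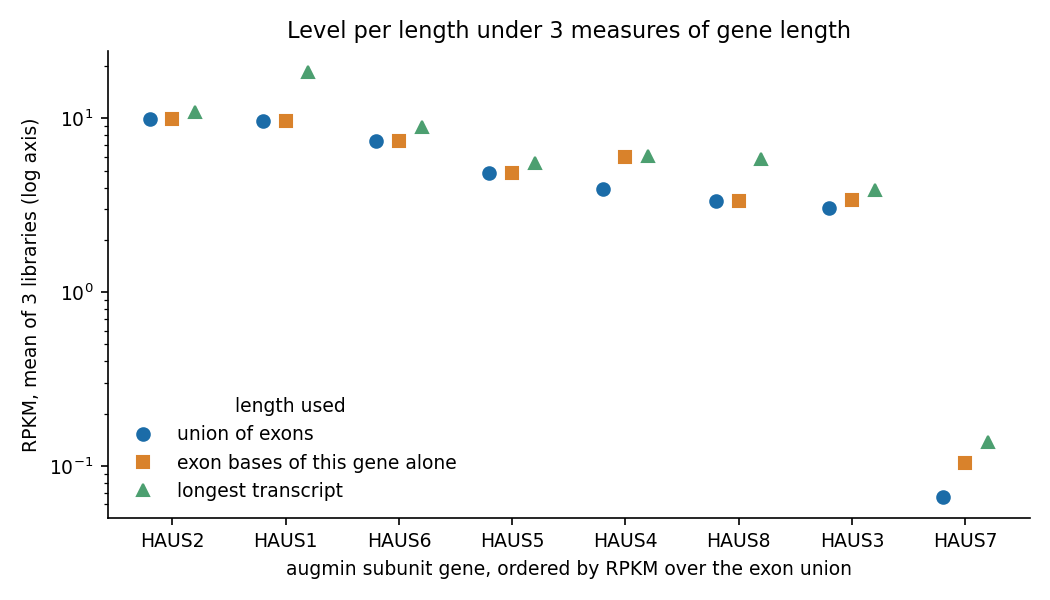
Mean RPKM of each subunit over 3 libraries on a log axis, with the exon union, the exon bases of that gene alone or the longest transcript as length. HAUS1 moves from 9.61 to 18.5 and HAUS4 from 3.93 to 5.97 or 6.08, while HAUS7 is at 0.137 at most.

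The level of TII against TIII turned on HAUS7. Mean log2(RPKM + 0.1) was 1.34 over the TII subunits and 2.31 over the TIII subunits, a difference of -0.97 ± 0.040 (SD, n = 3). TII was lower in each library, with an exact p of 0.25 by sign flips, which is the lowest that 3 libraries allow. Without HAUS7 the difference was 0.36 ± 0.11 with TII higher in 3 of 3 libraries, and without HAUS4 as well it was 0.26 ± 0.067.

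The spread of each gene between libraries was set against counting error by chi-square on its 3 counts, with Benjamini-Hochberg adjustment over the 16293 genes whose counts averaged 10 or more. All 8 subunits passed at a threshold of 0.05, beside 68.6% of all genes tested. The spread was clearest for HAUS1 (adjusted p = 4.98e-09), HAUS2 (2.16e-07), HAUS4 (2.74e-07) and HAUS7 (1.66e-05), and the adjusted p-values were 0.00281 for HAUS3, 0.00550 for HAUS6, 0.0256 for HAUS5 and 0.0368 for HAUS8. The ratio of highest to lowest CPM was 1.43 for HAUS4 and 1.33 for HAUS1, and 1.10 to 1.19 for the other 5 detected subunits. In bulk RNA, fewer cells of a type and less RNA per cell cannot be told apart in such a spread. The median ratio over the 7 was 1.162, against 1.19 over all detected genes. When each gene was also granted a coefficient of variation of 0.05 beyond counting error, HAUS1, HAUS4 and HAUS7 passed, beside 32.6% of all genes.

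Library 1 held the lowest value of 6 of 8 subunits, HAUS1, HAUS2, HAUS4, HAUS5, HAUS6 and HAUS7, and of 44.8% of all genes tested. Library 3 held the highest value of 6 subunits and of 27.2% of all genes tested. The mean deviation of the 7 detected subunits from their own means was -0.098, -0.0074 and 0.11 in log2(CPM + 0.5) for libraries 1, 2 and 3. Without library 1, HAUS1, HAUS2 and HAUS3 passed, beside 28.1% of all genes, and the adjusted p-values of the other 5 lay between 0.137 (HAUS7) and 0.953 (HAUS5). HAUS7 was 1 of a number of genes without a count in library 1 alone. Of 15727 genes with at least 10 counts in each of libraries 2 and 3, 157 (0.998%) had none in library 1. Among the 2785 genes at a level like that of HAUS7, with 20.5 to 82 counts in libraries 2 and 3 together, 211 (7.58%) had none there. Of the 157, 22 (14.01%) share exon bases with a gene of the same strand, as do 15.9% of the 15727. No gene with at least 10 counts in libraries 1 and 3 had 0 counts in library 2, and 10 genes with at least 10 in libraries 1 and 2 had none in library 3.

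**Figure D4:**
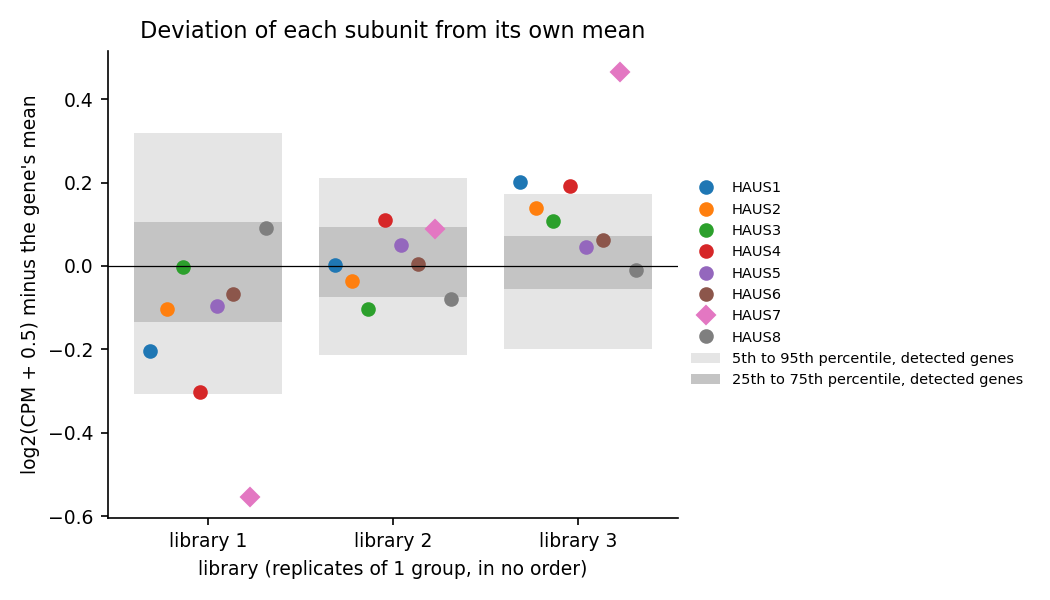
Deviation of each subunit in log2(CPM + 0.5) from its own mean, by library, over bars that hold the middle part of all detected genes. HAUS7 is at -0.55 in library 1 and 0.47 in library 3, HAUS4 is at -0.30 in library 1, and HAUS8 alone is above 0 there.

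RefSeq promoter windows (GRCh38.p14, 300 bases around a start) were found for all 8 genes, with 10 windows in all because HAUS7 and HAUS8 have 2 each. The motif GGGCGG, a GC box on either strand, was in 10 of 10 windows and in 44.95% of 35116 windows of all genes. The 2 windows of HAUS8 overlap and hold GC boxes in common, so the 10 windows are not all separate. These windows were rich in G and C, from 60.7% in HAUS5 to 75.3% in HAUS3, with a median of 58.7% over all genes. No window held TATAAA (11.5% of all windows) or TTCGAA (1.45%), and TTTGAA, a form of the cell cycle homology element, was in 1, of HAUS8 (15.2% of all). CCAAT, the NF-Y box, was in both windows of HAUS7 (34.6% of all), and CCGGAAG, an ETS-type core, was in 1 window each of HAUS6 and HAUS8 (10.3% of all). TGACGTCA, the cyclic AMP response element, which was searched after the windows had been read, was in the windows of HAUS2 and HAUS5 (1.85% of all), with 2 copies in HAUS5. Motifs were searched on both strands, and a match is a description of the letters alone. Of these stretches outside annotated exons of protein-coding genes, HAUS5 is shown for its 2 response elements (chr19:35612485-35612743, plus strand), HAUS8 for its GC boxes and ETS-type core (chr19:17075626-17075780, minus strand) and HAUS7 for the more distant of its 2 starts, which lies outside TREX2 (chrX:153495517-153495715, minus strand), with motif matches in capitals:
HAUS5: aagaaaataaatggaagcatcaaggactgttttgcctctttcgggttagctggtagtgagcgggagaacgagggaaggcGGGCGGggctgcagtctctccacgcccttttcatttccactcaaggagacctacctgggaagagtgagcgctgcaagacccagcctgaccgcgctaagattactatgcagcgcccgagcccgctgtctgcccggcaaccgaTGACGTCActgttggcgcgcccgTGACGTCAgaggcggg
HAUS8: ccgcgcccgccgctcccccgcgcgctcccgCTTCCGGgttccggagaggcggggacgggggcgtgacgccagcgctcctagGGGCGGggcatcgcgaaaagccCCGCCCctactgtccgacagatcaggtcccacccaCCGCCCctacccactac
HAUS7: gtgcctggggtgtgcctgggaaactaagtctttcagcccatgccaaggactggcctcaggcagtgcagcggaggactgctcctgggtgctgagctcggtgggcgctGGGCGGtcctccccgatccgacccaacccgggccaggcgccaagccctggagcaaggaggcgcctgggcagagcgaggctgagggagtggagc

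The genes of 3 lists of augmin's working partners were all detected, beside 11508 of 19951 protein-coding genes. Each list had a higher median level than the 8 subunits (4.39 RPKM). Of the gamma-tubulin ring complex list, 11 of 11 were detected (median 10.7 RPKM) and 9 passed the spread test, which 75.6% of all detected genes passed. TUBG1, the main gamma-tubulin gene, stood at 56.4 ± 3.20 RPKM and TUBGCP4, a ring subunit, was lowest at 2.19 ± 0.0814 (SD, n = 3). NEDD1, the adaptor that HAUS6 binds, stood at 19.1 ± 1.80 RPKM, and was highest in library 1, where HAUS6 was lowest. In the list of branching nucleation and its control 12 of 12 were detected (median 26.3 RPKM) and 12 passed. KPNA2, an importin alpha that holds spindle factors until Ran-GTP frees them, was highest at 127 ± 10.2 RPKM. TPX2, which such import factors bind, stood at 57.9 ± 2.49, the kinase PLK1 at 15.5 ± 0.967 and EML3, a microtubule protein that recruits augmin, at 8.12 ± 0.989, and CEP192, a centrosome scaffold, was lowest at 4.98 ± 0.568 RPKM. Of 12 genes for spindle and bridging fibres 12 were detected (median 20.5 RPKM) and 11 passed. CLTC, the clathrin heavy chain that crosslinks fibre microtubules, was highest at 54.4 ± 2.35 RPKM. PRC1, the bundler of antiparallel microtubules, was lowest at 2.39 ± 0.183 RPKM, and 57.6% of its exon bases are shared with a gene of its strand.

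Library 1 held the lowest value of 6 of the 11, 9 of the 12 and 10 of the 12 genes of these lists, beside 47.0% of all detected genes. The 3 listed genes whose deviations over the 3 libraries lay nearest to the mean of the detected subunits were KIFC1, a spindle motor (Euclidean distance 0.0385 in log2), AURKA, a mitotic kinase (0.0434), and RCC1, which makes Ran-GTP at chromosomes (0.0455). Of 12608 other detected genes, 370 (2.93%) lay as near as RCC1.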

How the data were processed

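Poly(A) RNA was sequenced in 3 libraries of 1 control group. The authors deposited whole-number counts of reads per gene, not normalised, per the labels. The build is hg38, and featureCounts 1.6.2, STAR 2.5.2a and cutadapt 1.16 are listed by the submitters' processing notes with no roles or settings. Neither the annotation used nor the rule for reads on several genes is stated. Each of the 58735 identifiers was found in GENCODE release 29, from which positions, exon unions and shared bases were taken. The table held 6 further columns of counts that match no sample label given here, and they were not used.

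Totals were scaled by TMM (edgeR 4.0.16, R 4.3.3). CPM uses these totals, and RPKM divides CPM by the exon union in kb, which lowers genes with long, rarely used exons. With 1 group no contrast between groups exists. The spread of each gene was tested by chi-square (2 degrees of freedom, scipy 1.17.1) over the 16293 genes whose counts averaged 10 or more, adjusted by Benjamini-Hochberg at 0.05. The test was checked on simulated counts with counting error and set changes in 1 library. That check does not cover scatter beyond counting error, which 68.6% of the genes tested showed here. Levels were compared within libraries by a two-sided exact sign-flip test on log2(RPKM + 0.1). Alternatives were DESeq2 1.42.0 size factors, raw totals, other filters, lengths and pseudocounts, and leaving out each library.

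Named genes are the 8 members, genes that overlap their exons, and from each partner list the highest and lowest detected member, with NEDD1, TPX2, PLK1, EML3, PRC1 and the 3 genes of most similar deviations. The motif TGACGTCA was added after the promoter windows had been read. The members and lists were chosen with earlier results of these data known. Protein features were planned and are not analysed here.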

Additional observations from a re-analysis of the deposited data

How the results depend on the processing

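With DESeq2 size factors or raw totals the order of the 8 levels did not change, and 8 and 7 subunits passed the spread test, beside 68.6% and 69.3% of all genes (HAUS8 did not with raw totals, chi-square adjusted p = 0.139). Without any filter on counts 7 passed, beside 48% of genes (HAUS8, chi-square adjusted p = 0.0510), and with a mean count of at least 50 all 7 that could be tested passed, beside 75.7%. Leaving out library 1 gave 3 subunits and 4581 genes (28.1% of 16321 tested) with a spread beyond counting error. Leaving out library 2 gave 6 subunits and 9159 genes (56.8% of 16130). Without library 3, HAUS7 fell under the count filter, and 5 of 7 subunits and 10016 genes (60.7% of 16500) passed. When each library was left out in turn, 6 to 8 subunits kept their place in the order. With an extra coefficient of variation of 0.05, 3 subunits and 5307 genes (32.6%) passed. With the whole counts divided by unshared exon bases, 4 of 8 subunits kept their place, the median was 5.41 RPKM and the TII minus TIII difference was -1.10. Over the longest transcript these were 3, 5.97 RPKM and -1.09, and without length 2, 21.2 CPM and -0.76. With a pseudocount of 1 RPKM the difference was -0.38. With the main pseudocount of 0.1 RPKM it turned from -0.97 to 0.36 without HAUS7. It was 0.26 without HAUS4 and HAUS7, the latter chosen after seeing the data. Both follow from leaving out a gene near 0. Of 62 recomputed spread tests of single subunits 46 kept their call, and of 56 recomputed levels in RPKM 46 stayed within 1 SD. The 10 that moved all came from a change of the length. Much of this count was fixed in advance. Leaving out 1 of 3 libraries cannot move a mean by 1 SD, and unshared bases change no subunit without shared exons. No paired analysis was possible because there is only 1 group. At this depth HAUS7 rests on at most 24 counts a library, and its absence from library 1 cannot be told from a level under 0.0760 CPM, the exact binomial bound.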
